A study of Mus musculus with 96 samples.

Results

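Hyaluronan is a long sugar chain that fibroblasts spin out at the plasma membrane, and it swells into a loose, hydrated coat around the cell. Of the 15895 genes in a table of RNA levels in serum-stimulated mouse fibroblasts, 8 genes of this coat and of the provisional matrix built around it were examined, namely Has1, Has2, Cd44, Tnfaip6, Ptx3, Vcan, Hyal1 and Hyal2. They were chosen by gene symbol, and each of the 8 had 1 row in the table. The cells were primary mouse embryonic fibroblasts (MEFs) of CF-1 stock from embryonic day 13. All of them had first spent 36 h in 0.5% serum before serum was raised to 20%. The authors used this step to synchronize the cell cycle, and they state that it need not synchronize every cell. RNA was sequenced in 2 time courses, Cycle 1 with 63 libraries that end at 38 h and Cycle 2 with 32 that end at 27 h, both starting 1 h ahead of serum, with a single library at each time. The libraries at -1 and 0 h are called starved below, and each Cycle was compared with its own starved libraries. No culture was left without serum through the hours, so serum and time since the start of the experiment cannot be told apart, and the labels do not say whether embryos were pooled.

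Hyaluronan synthases, the Has enzymes, build the chain from activated glucuronic acid and N-acetylglucosamine. The chain is held at the cell surface by the receptor CD44. It is decorated by TSG-6, the product of Tnfaip6, which moves heavy chains of inter-alpha-inhibitor onto it, and pentraxin 3, from Ptx3, binds the decorated chains and ties them together. Versican, from Vcan, is a large chondroitin sulfate proteoglycan that binds hyaluronan through its N-terminal domain and adds bulk to the coat. HYAL2 at the cell surface and HYAL1 in lysosomes cut the chain down. Matrix of this kind is laid down in wounds and around the expanding cumulus of the ovulated egg, and serum is a common experimental stand-in for the wound.

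The upstream DNA of 4 of the genes whose RNA rose at the earliest hours is shown here, to show which of a few regulatory motifs each of them holds. Of the 8 genes 7 had an entry among the RefSeq promoter windows of build GRCm38.p6, all but Has2, and the 250 bases before the annotated start were searched on both strands for 6 motifs chosen after the sequences had been seen. These were the AP-1 site TGANTCA, the cyclic AMP response element TGACGTCA, the C/EBP site TTNNGNAA, the TATA box TATAAA, the TEAD site GGAATG and the CArG box of serum response factor. No site of one kind overlapped a site of another in these promoters. Matches are in capitals.

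Tnfaip6 (chr2:52037863-52038112, plus strand): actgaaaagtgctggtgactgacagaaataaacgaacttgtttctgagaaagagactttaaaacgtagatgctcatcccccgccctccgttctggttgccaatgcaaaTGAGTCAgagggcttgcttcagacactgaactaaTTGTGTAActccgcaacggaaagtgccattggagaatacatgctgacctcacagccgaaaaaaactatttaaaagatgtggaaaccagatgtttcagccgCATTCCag
Ptx3 (chr3:66219637-66219886, plus strand): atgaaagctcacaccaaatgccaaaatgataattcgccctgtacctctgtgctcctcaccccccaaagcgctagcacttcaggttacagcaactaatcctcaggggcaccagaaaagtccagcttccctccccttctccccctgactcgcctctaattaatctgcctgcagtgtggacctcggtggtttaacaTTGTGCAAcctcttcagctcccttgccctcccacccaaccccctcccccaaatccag
Has1 (chr17:17855189-17855438, minus strand): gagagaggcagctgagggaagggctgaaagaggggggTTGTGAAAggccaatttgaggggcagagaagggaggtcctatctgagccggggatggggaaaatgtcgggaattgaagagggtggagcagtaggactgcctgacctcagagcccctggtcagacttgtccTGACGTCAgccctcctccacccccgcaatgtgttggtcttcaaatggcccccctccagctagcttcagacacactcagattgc
Cd44 (chr2:102901666-102901915, minus strand): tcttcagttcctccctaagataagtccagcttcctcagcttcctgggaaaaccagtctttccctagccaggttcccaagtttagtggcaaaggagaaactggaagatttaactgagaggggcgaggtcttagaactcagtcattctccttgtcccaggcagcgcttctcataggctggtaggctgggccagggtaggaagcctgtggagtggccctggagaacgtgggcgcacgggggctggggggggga

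The Tnfaip6 promoter held an AP-1 match starting 142 bases before the start, a C/EBP match starting 108 bases before it and a TEAD match on the other strand starting 8 bases before it. The Ptx3 promoter held a C/EBP match starting 57 bases before the start. The Has1 promoter held a C/EBP match starting 213 bases before the start and the cyclic AMP response element starting 83 bases before it. The Cd44 promoter held none of the 6. Over all 32851 promoters of the same length, 6.75% held the AP-1 site, 1.55% the cyclic AMP response element, 36.8% the C/EBP site, 12.6% the TEAD site, 12.4% the TATA box and 1.47% the CArG box. The C/EBP site is therefore common in any promoter. A match describes letters in this window and is no evidence of a bound factor, and a missing match says only that these letters are not in this window.

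The values are a normalized signal, reads on exons scaled so that every library has about the same total, and are given without a unit. The reads behind them, read back from the step size of the low values, numbered 4352233 to 12551923 per library over the rows of the table. In that depth Cd44 had 594 to 25566 reads in a library, Has2 141 to 3316, while Hyal1 had 6 to 74 and Has1 0 to 226, so single values of Hyal1 and Has1 are the least exact. All 11 fibroblast markers were present in every library, but their summed signal fell with time, from 509071 to 524896 in starved cells of Cycle 1 and 352797 to 370957 in those of Cycle 2 to 171694 to 191838 and 168863 to 180883 at 24-27 h. From 7-10 h on 7 to 8 of the 11 were called lower and 1 to 2 higher. The macrophage markers Ptprc, Cd68, Emr1, Csf1r, Cd14, Aif1 and Lyz2 summed to 499 to 1847 in Cycle 1 and 727 to 4786 in Cycle 2, and Lyz2 had the highest median of them, 744. For the tests the 29 hours sampled in both Cycles were averaged on the log2(value + 1) scale into 8 windows in each Cycle, so that the Cycles are the replicates (n = 2). A gene is called higher or lower where limma gave a Benjamini-Hochberg adjusted p under 0.05 over all 15895 rows. With 2 time courses the p-values measure how far these Cycles disagree once a constant difference between them is taken out. That spread may be technical. It is estimated once per gene over starved and all 8 windows and is drawn towards that of all rows. A library of one window can therefore change a call in another. RNA levels are also bulk averages, in which fewer cells of a type and less RNA per cell cannot be told apart.

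Over the 8 windows, which end at 27 h, the 8 genes split into 5 courses. Has2 and Cd44 were higher in every window. Has1 rose early and returned. Tnfaip6 and Ptx3 rose in the first window and were later called lower than starved, Tnfaip6 from 7-10 h on and Ptx3 from 4-6 h to 7-10 h. Vcan and Hyal1 fell and stayed low to 27 h, and Hyal2 dipped before it rose. At 1-1.5 h 5 of the 8 were called higher and 1 lower, against 5.00% and 11.5% of all rows. At 2-3 h 4 were higher and 3 lower, against 12.2% and 33.8%. At 4-6 h 3 were higher and 3 lower, against 15.8% and 31.9%. At 7-10 h 4 were higher and 4 lower, against 16.1% and 26.8%. In the 4 windows from 11-14 h to 24-27 h 3 were higher (Has2, Cd44 and Hyal2) and 3 lower (Tnfaip6, Vcan and Hyal1), where the shares of all rows were 16.7% and 26.0%, 16.5% and 25.9%, 17.2% and 28.9%, and 16.5% and 30.3%. Over the 8 genes the median log2 difference fell from 1.71 at 1-1.5 h to -0.81 at 19-23 h, while the median of all rows stayed between -0.32 and -0.12. The count of rows with a lower level depends on the scaling of the libraries. At 2-3 h 1932 rows were higher and 5365 lower with the deposited scaling, and 3046 higher and 3586 lower after TMM rescaling, which brought the median of all rows from -0.32 to -0.07. No call of the 8 genes turned its direction after TMM rescaling or rescaling by the median of ratios.

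**Figure D1:**
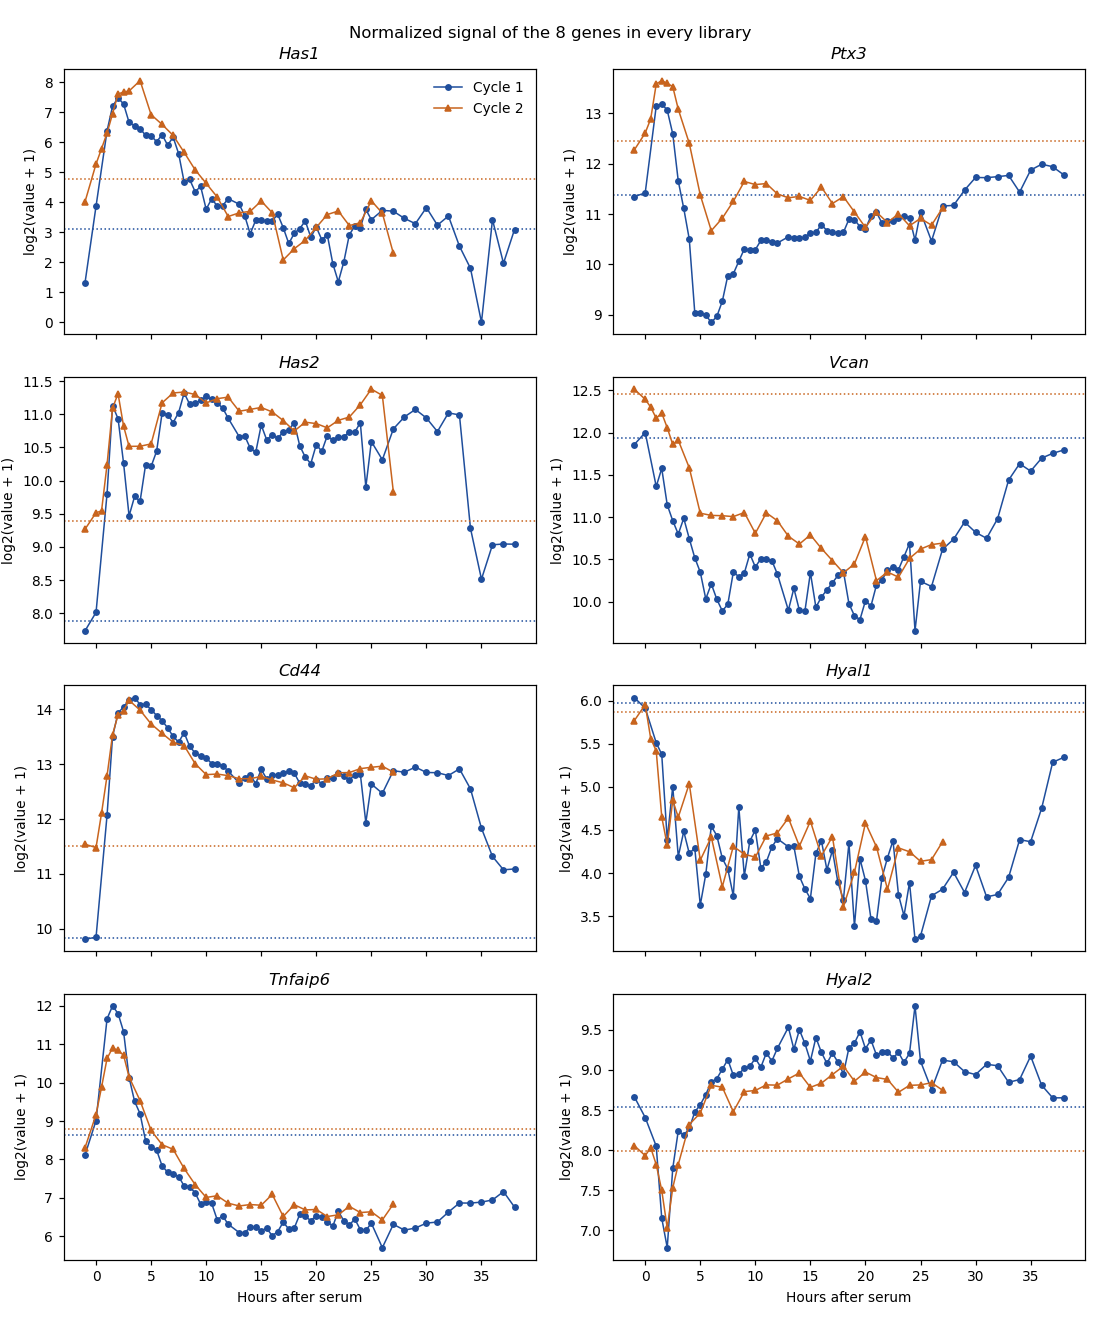
Normalized signal of the 8 genes as log2(value + 1) against hours after serum, 1 point per library, Cycle 1 as blue circles and Cycle 2 as orange triangles, with each Cycle's starved mean as a dotted line. The highest Cd44 libraries are at 3.5 h in Cycle 1 (19019) and 3 h in Cycle 2 (18366), Tnfaip6 and Ptx3 peak at 1.5 h in both Cycles, and Has2 has a first peak, a dip at 3 h and a second plateau.

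Has2, the synthase that fibroblasts mainly use, rose within the first hours and stayed up. Its signal in starved cells was 212 and 257 at -1 and 0 h in Cycle 1, and 615 and 731 in Cycle 2. At 1 and 1.5 h it was 892 and 2242 in Cycle 1, and 1210 and 2188 in Cycle 2. All 4 of these libraries lay above the starved libraries of both Cycles. The difference was 1.94 on the log2 scale (SE 0.284, limma adjusted p = 0.00122). Has2 then dipped and rose again. In Cycle 1 it fell from 1956 at 2 h through 1229 at 2.5 h to 707 at 3 h, and was back at 2077 by 6 h. In Cycle 2 it went from 2539 at 2 h through 1811 at 2.5 h to 1464 at 3 h, and was at 2309 by 6 h. The dip was thus present in both time courses, to a level that was still above starved in each, and it falls between and within windows, so no window test measures it. The 8 h library held the highest value of Cycle 1, 2558 or 10.9-fold over starved. The highest of Cycle 2 was 2666 at 25 h, 3.96-fold over starved. At 7-10 h the values were 1878, 2558, 2296 and 2470 in Cycle 1, and 2560, 2585, 2520 and 2307 in Cycle 2. The log2 difference was largest in that window, at 2.59 (SE 0.284, adjusted p = 0.000109), and it remained between 2.10 and 2.35 in the later ones. Has2 and Cd44 were called higher in all 8 windows, as were 1.47% of all rows. The starved level was 2.87-fold higher in Cycle 2, and the rise over it was smaller there. In the windows from 7-10 h on the log2 difference was 2.72 to 3.29 in Cycle 1 and 1.49 to 1.89 in Cycle 2.

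Has2as, an RNA read from the opposite strand of the Has2 locus, was also called higher in all 8 windows, by 0.77 to 1.57 on the log2 scale. Has2 lies at chr15:56497182-56526094 on the minus strand of NCBIM37, the build that matches mm9, and Has2as at chr15:56521499-56609954 on the plus strand, so they overlap. The authors counted reads on both strands, and reads of the shared stretch cannot be assigned to one of the pair. The Has2as signal was low beside that of Has2, with means of 15.0 and 17.4 in starved cells and of 44.5 and 59.1 at 7-10 h in Cycles 1 and 2.

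Has1, another synthase isoform, had few reads but a larger log2 difference from starved than Has2 in the first 6 h. Starved values were 1.50 and 13.7 in Cycle 1, from 1 and 15 reads, and 15.3 and 37.9 in Cycle 2, from 16 and 46 reads. At 2, 2.5 and 3 h it was 178, 155 and 100.8 in Cycle 1, and 195, 204 and 209 in Cycle 2. None of these 6 libraries came near the starved ones. The log2 difference at 2-3 h was 3.78 (SE 0.454, adjusted p = 0.000127), after 3.09 at 1-1.5 h (adjusted p = 0.00123) and before 3.13 at 4-6 h (adjusted p = 0.000389). The highest library was at 2 h in Cycle 1, 23.5-fold over the starved mean, and at 4 h in Cycle 2, with 266 or 10.0-fold. At 7-10 h the difference of 1.45 was still called (adjusted p = 0.0258), but not without the block for Cycle (adjusted p = 0.0569), without the 7 h library of Cycle 1 (adjusted p = 0.0613) or without the -1 h library of Cycle 2 (adjusted p = 0.128). With the 0 h libraries as the only starved ones it was 0.50 (adjusted p = 0.277). From 11-14 h on Has1 was not called, with log2 differences of 0.12 to -0.61. Without the -1 h library of Cycle 1, the one with a single Has1 read, it was called lower at 15-18, 19-23 and 24-27 h, with -1.12, -1.24 and -0.85 (adjusted p = 0.0109, 0.00599 and 0.0322). It was also called lower in these 3 windows with the 0 h libraries alone as starved, with -1.43, -1.56 and -1.16 (adjusted p = 0.0092, 0.00567 and 0.0213), and at 19-23 h in edgeR (-1.11, adjusted p = 0.0266).

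A comparison of the synthases needs levels per length of transcript, and the third synthase, Has3, was added for it. Per kilobase, the mean Has2 signal was 55.4 and 159 in starved cells of Cycles 1 and 2, against 3.63 and 12.7 for Has1 and 1.28 and 0.671 for Has3. Has2 made up 91.9% and 92.2% of the sum of the 3 in starved cells. Its share was lowest at 2-3 h, with 80.0% and 82.0%, when Has1 made up 18.1% and 17.4%. From 11-14 h on Has2 made up 97.7% to 98.8%. Has3 was called higher in 7 of 8 windows, by up to 2.37 at 4-6 h (adjusted p = 0.000102), yet its share per kilobase was at most 2.12%, in starved cells of Cycle 1. At the RNA level all 3 synthases were therefore higher in the 3 windows of the first 6 h, and of the 3 only Has2 was called higher in every window.

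**Figure D2:**
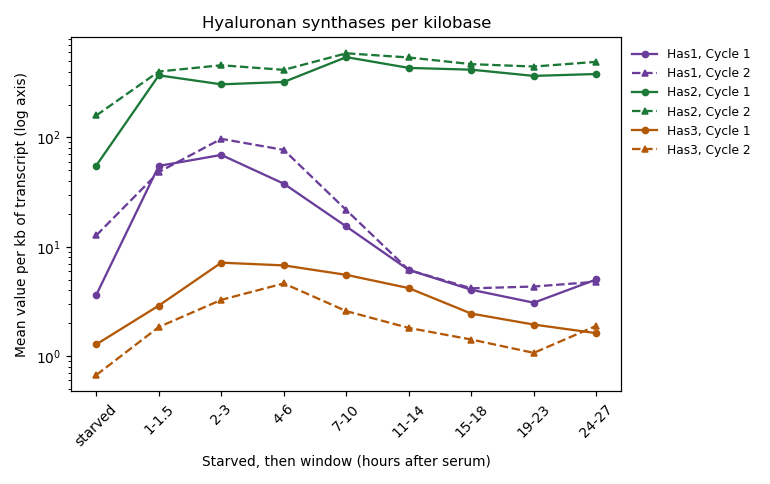
Mean signal per kilobase of transcript of Has1 (purple), Has2 (green) and Has3 (brown) on a log axis, in starved cells and 8 windows, Cycle 1 with solid lines and Cycle 2 with dashed lines. Has2 is above the others at each point, and Has1 comes nearest to it at 2-3 h, with 69.2 against 306 in Cycle 1 and 97.1 against 457 in Cycle 2.

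Cd44, the main hyaluronan receptor of fibroblasts, had the most reads of the 8 genes. It lies at chr2:102651298-102741822 on the minus strand of NCBIM37, and its row averages 6 transcripts, so a change of splice form would not be seen. Starved values were 893 and 916 in Cycle 1, and 2970 and 2851 in Cycle 2. At 1 and 1.5 h they were 4293 and 11610 in Cycle 1, and 7071 and 11886 in Cycle 2, all above every starved library. The libraries of 2, 2.5 and 3 h held 15642, 16889 and 18405 in Cycle 1, and 15286, 16097 and 18366 in Cycle 2. The 2 time courses thus reached nearly the same level from starved means that differed 3.22-fold. The highest values were 21.0-fold and 6.31-fold over starved. The log2 difference was 3.37 at 2-3 h (SE 0.380, adjusted p = 9.05e-05), and then shrank to 2.58 at 7-10 h and 2.14 at 11-14 h. From 11 to 27 h the log2 difference changed little, with 2.09 to 2.14 in the last 4 windows. All shared hours of both Cycles were above starved there. From 11-14 h to 24-27 h the difference went from 3.01 to 2.88 in Cycle 1 and from 1.26 to 1.41 in Cycle 2. Macrophages also carry CD44, and their summed marker signal in Cycle 1 was 1122 to 1207 in starved cells, 1414 to 1847 at 1-1.5 h, 1330 to 1476 at 2-3 h and 616 to 732 at 24-27 h. In Cycle 2 it was 3399 in both starved libraries, 4112 to 4786 at 1-1.5 h, 3683 to 4014 at 2-3 h and 2082 to 2357 at 24-27 h. Of the 7 macrophage markers 1 was called higher in each of these 3 windows and 4 were called lower at 24-27 h. The part of these cells in the Cd44 result was not tested.

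Tnfaip6 and Ptx3, which encode the proteins that decorate and cross-link the chain, shared an early burst followed by a fall below the starved level. Tnfaip6 at -1 and 0 h was 277 and 516 in Cycle 1, and 316 and 575 in Cycle 2. At 1 and 1.5 h it was 3251 and 4098 in Cycle 1, and 1586 and 1918 in Cycle 2. Both Cycles had their highest library at 1.5 h, 10.3-fold and 4.31-fold over starved. In Cycle 2, which has a library at 0.5 h, Tnfaip6 was at 943 by then, above its starved libraries. The log2 difference was 2.65 at 1-1.5 h (SE 0.366, adjusted p = 0.000871) and 2.18 at 2-3 h (adjusted p = 0.000821). Between 2-3 h and 4-6 h it fell by 2.16 (adjusted p = 0.00533), which brought it back to the starved level, with a difference of 0.02 at 4-6 h. The fall then went on below that level. At 11-14 h the libraries held 85.3, 78.6, 67.3 and 74.1 in Cycle 1, and 132, 115, 110 and 112 in Cycle 2, each under the lowest starved library of its Cycle. The difference was -2.08 in that window (adjusted p = 0.0017) and -2.27 at 24-27 h (adjusted p = 0.00091). Its lower call at 7-10 h (-1.24, adjusted p = 0.0202) was lost without the 0 h library of Cycle 1 (adjusted p = 0.0534) and with the -1 h libraries as the only starved ones (-0.80, adjusted p = 0.103). Of all rows 0.573% were, as Tnfaip6 was, higher at 1-1.5 h and lower at 11-14 h. These windows were taken from the course of Tnfaip6 itself, so this share is a description only.

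Ptx3 began at a high level. Starved values were 2600 and 2742 in Cycle 1, and 4939 and 6255 in Cycle 2. At 1 and 1.5 h it held 9053 and 9365 in Cycle 1, and 12282 and 12855 in Cycle 2. The groups did not overlap in either Cycle, and the 1.5 h libraries were 3.51-fold and 2.30-fold over starved. The log2 difference at 1-1.5 h was 1.48 (SE 0.410, adjusted p = 0.0326), a call that was lost without the block for Cycle (adjusted p = 0.211), without the 4 h library of Cycle 1 (adjusted p = 0.066), without the 6 h library of Cycle 2 (adjusted p = 0.0578) and with the 0 h libraries as the only starved ones (1.38, adjusted p = 0.0512). At 2-3 h the difference of 1.01 did not pass the test (adjusted p = 0.0665), and the fall that followed was steep. Between 2-3 h and 4-6 h Ptx3 fell by 2.45 on the log2 scale (adjusted p = 0.00526). The lowest libraries were at 6 h in both Cycles, at 460 and 1628, where the signal was 0.172-fold and 0.291-fold the starved mean. At 4, 5 and 6 h it was 1450, 524 and 460 in Cycle 1, and 5427, 2662 and 1628 in Cycle 2. Of these only the 4 h library of Cycle 2 lay within the range of its starved libraries, and the difference from starved at 4-6 h was -1.44 (adjusted p = 0.0151). The lower calls at 4-6 h and 7-10 h were lost without the block (adjusted p = 0.111 and 0.164). The call at 4-6 h was also lost without the 6 h library of Cycle 2 (-1.23, adjusted p = 0.0511), and that at 7-10 h without the 4 h library of Cycle 1 (-1.28, adjusted p = 0.0569). From 11-14 h on the differences of -0.91 to -1.01 did not pass the test (adjusted p = 0.0639 to 0.0974), although each shared hour of these windows was below its starved mean in both Cycles. With the 0 h libraries as the only starved ones Ptx3 was called lower at 19-23 and 24-27 h (-1.11 and -1.12, adjusted p = 0.0486 and 0.0464). The path back differed between the time courses: the signal in Cycle 1 climbed from 460 at 6 h to 2286 at 27 h, while that in Cycle 2 reached 3207 at 9 h and was 2227 at 27 h. Ptx3 lies at chr3:66023809-66029728 on the plus strand of NCBIM37 inside the span of Veph1 on the other strand, and reads of the pair cannot be told apart where exons overlap.

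Tnfaip6, Ptx3 and Hyal2 were the 3 of the 8 genes called in both directions, higher in one window and lower in another, as were 5.37% of all rows. For comparison, 6 of the 8 were called higher in at least 1 window and 5 lower, where the shares of all rows were 30.0% and 55.7%.

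**Figure D3:**
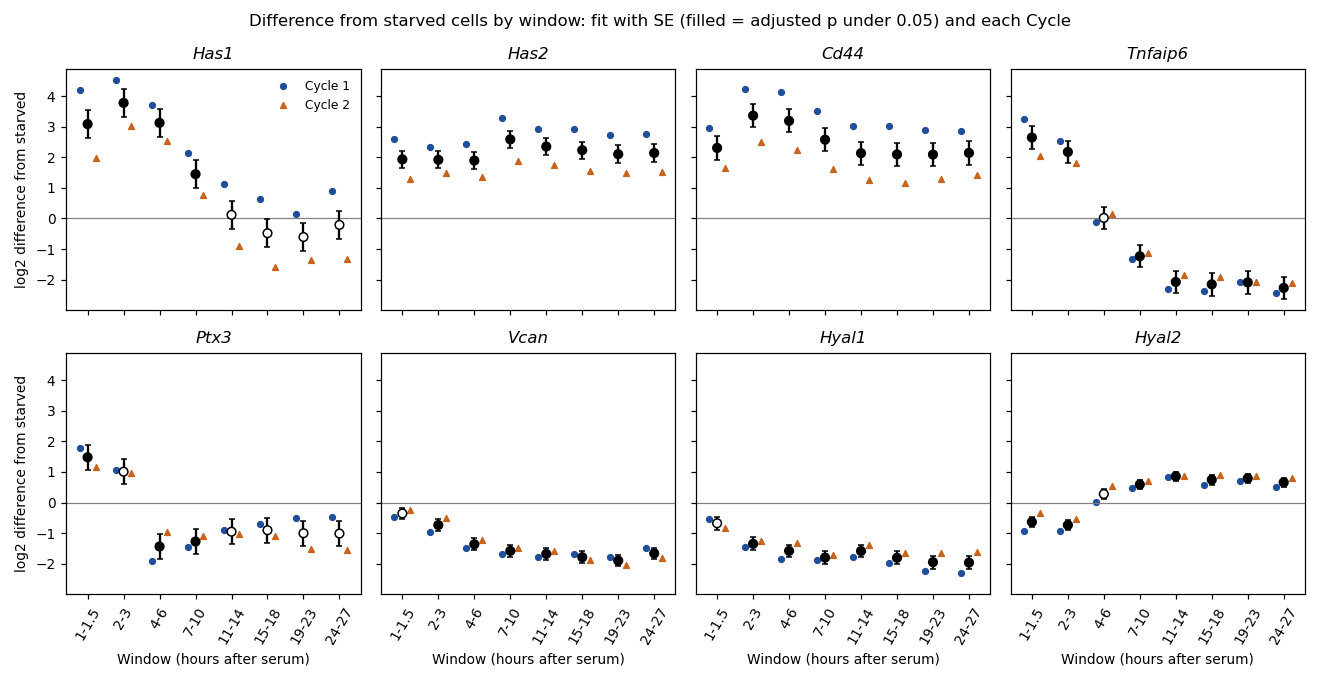
log2 difference from starved cells in each of 8 windows for the 8 genes, with the limma estimate and its SE in black (filled where adjusted p was under 0.05) and the difference in each Cycle as blue circles and orange triangles. Has1, Has2 and Cd44 rose by more in Cycle 1 than in Cycle 2 in every window in which they were called, and Vcan and Hyal1 lie below 0 in every window.

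Vcan, which encodes the main hyaluronan-binding proteoglycan of fibroblasts, went down as the chain's synthases went up. Starved values were 3709 and 4096 in Cycle 1, and 5851 and 5380 in Cycle 2. At 4, 5 and 6 h they were 1715, 1302 and 1183 in Cycle 1, and 3068, 2113 and 2075 in Cycle 2. All 6 were under the starved libraries of their own Cycle. The log2 difference was -1.37 at 4-6 h (SE 0.191, adjusted p = 0.000314) and lowest at 19-23 h, with -1.90 (adjusted p = 7.14e-05). In that window the signal was 911, 1030, 1172, 1328 and 1330 in Cycle 1, and 1394, 1745, 1214, 1304 and 1250 in Cycle 2 from 19 to 23 h. The earlier call at 2-3 h (-0.74, adjusted p = 0.00927) was the weak one. It was lost after TMM rescaling (-0.47, adjusted p = 0.0501), after rescaling by the median of ratios (adjusted p = 0.0697), without the block for Cycle (adjusted p = 0.189) and in edgeR (adjusted p = 0.0514), and its size is under a log2 difference of 1. The summed fibroblast marker signal also fell, to 306504 to 357855 in Cycle 1 and 269506 to 322705 in Cycle 2 at 4-6 h and to 172359 to 180014 and 178352 to 199863 at 19-23 h, and 5 and 7 of the 11 markers were called lower in these windows. Their part in the Vcan result was not tested. Vcan and Hyal1 were called lower in 7 of the 8 windows, as 10.7% of all rows were in 7 or more. The Vcan row averages 5 transcripts, and the gene, at chr13:89794915-89882117 on the minus strand of NCBIM37, overlaps the noncoding Gm4117 on the other strand.

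Hyal1, the lysosomal hyaluronidase, had few reads, and its RNA went the same way as Vcan. It was at 64.6 and 59.3 in starved cells of Cycle 1, and at 53.4 and 61.0 in Cycle 2. At 2, 2.5 and 3 h it was 19.9, 31.1 and 17.3 in Cycle 1, and 19.0, 27.7 and 24.1 in Cycle 2. All 6 were below the starved libraries. The log2 difference was -1.35 at 2-3 h (SE 0.209, adjusted p = 0.000517) and -1.97 at 24-27 h (adjusted p = 8.52e-05). At 1-1.5 h it was -0.68 with an adjusted p of 0.0506, and the step from 1-1.5 h to 2-3 h was itself called (-0.67, adjusted p = 0.0429). Hyal1, at chr9:107479258-107485174 on the plus strand of NCBIM37, shares its locus with Nat6 and Hyal3 on the same strand and with the noncoding Gm16343 on the other, and reads in shared exons cannot be told apart. Nat6, an N-acetyltransferase gene, was called lower in 5 windows, with -1.17 at 2-3 h (adjusted p = 0.0012), and Hyal3 in 3.

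Hyal2, the membrane-anchored hyaluronidase that makes the first cuts in the chain, went down and then up. It lies next to Hyal1, at chr9:107471448-107475107 on the plus strand. Starved values were 406 and 338 in Cycle 1, and 265 and 243 in Cycle 2. The lowest library was at 2 h in both time courses, with 109 and 130, and by 6 h the signal was 460 and 447, above the starved libraries in both. The difference was -0.64 at 1-1.5 h (SE 0.157, adjusted p = 0.0191) and -0.74 at 2-3 h (adjusted p = 0.00325). It then rose by 1.02 between 2-3 h and 4-6 h (adjusted p = 0.00378), and was 0.86 above starved at 11-14 h (adjusted p = 0.00207). At 11, 12, 13 and 14 h it was 592, 616, 739 and 723 in Cycle 1, and 449, 448, 473 and 498 in Cycle 2, all above starved. At 1-1.5 h the call was lost after TMM rescaling (-0.47, adjusted p = 0.0502), after rescaling by the median of ratios (-0.46, adjusted p = 0.0615), without the block (adjusted p = 0.113), without the 1.5 h library of Cycle 1 (-0.41, adjusted p = 0.0915) or of Cycle 2 (adjusted p = 0.0678), and in edgeR (adjusted p = 0.0717). At 2-3 h it was lost in edgeR (-0.33, adjusted p = 0.0797). The call at 7-10 h (0.59, adjusted p = 0.0125) was lost without the block (adjusted p = 0.0705) and without the 1 h library of Cycle 1 (adjusted p = 0.0513). No Hyal2 difference from starved reached 1 on the log2 scale, so all 7 of its calls, the early lower and the later higher ones, are lost where a log2 difference above 1 is also asked for.

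Between successive windows 4 of 56 contrasts of the 8 genes were called, and all 4 fell within the first 6 h. From 1-1.5 h to 2-3 h 1 gene, Hyal1, was lower, against 14.3% of all rows, where 7.61% were higher. From 2-3 h to 4-6 h Hyal2 was higher, against 10.1% of rows, and Tnfaip6 and Ptx3 were lower, against 4.96%. From 4-6 h to 7-10 h 1.10% of rows were higher and 0.623% lower, and from 7-10 h to 11-14 h 1 row of the table (0.00629%) was lower, so this test made next to no calls among the later windows.

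Starved levels differed between the time courses. In 5 of the 8 genes both starved libraries of Cycle 2 lay above both of Cycle 1, as in 29.5% of all rows, and in 1, Hyal2, they lay below, as in 38.8%. Cycle 2 over Cycle 1 was 3.22 for Cd44, 2.87 for Has2, 2.10 for Ptx3, 1.44 for Vcan and 0.683 for Hyal2. Has1 was at 3.50, but from few reads. Tnfaip6 and Hyal1 were at 1.12 and 0.923, with overlapping values. The same starved libraries differed in macrophage marker signal, 1122 and 1207 in Cycle 1 against 3399 in both of Cycle 2, and in fibroblast marker signal, 509071 to 524896 against 352797 to 370957. The part of these in the starved levels was not tested.

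The other genes that make, bind and remove hyaluronan were counted in 6 lists. Of all rows 30.0% were called higher in at least 1 window and 55.7% lower, and the counts are read against these shares. Of the 8 genes for precursors and chain synthesis, 7 were called higher in at least 1 window and 3 lower, with 2 in both directions. At 4-6 h 6 were higher and 1 lower, against 15.8% and 31.9% of all rows, and the median difference was 0.98 on the log2 scale, beside -0.26 over all rows. Gfpt2, whose enzyme takes the first step towards the glucosamine precursor, was up by 2.48 at 2-3 h (adjusted p = 7.3e-05) and was at -0.72 at 24-27 h (adjusted p = 0.048). Ugdh, whose enzyme makes the glucuronic acid precursor, was up by 1.63 at 4-6 h (adjusted p = 0.00056), and Uap1 and Pgm3 of the glucosamine branch by 0.98 each. Ugp2, one step before Ugdh, was the exception, at -0.65 at 4-6 h (adjusted p = 0.0021). The rise of the list was passing, since 1 of 8, Has3, was higher at 24-27 h and 2 were lower.

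Of the 5 genes for breakdown other than the members, 3 were called higher and 3 lower in at least 1 window, 1 of them in both directions. The lower count is near the 55.7% of all rows, and 30.0% of rows were higher. Tmem2, a cell surface protein described as a hyaluronidase, rose by 1.74 at 2-3 h (adjusted p = 1.4e-05) and was higher in all 8 windows. The gene listed as 9930013L23Rik, an older name of Cemip, whose product takes part in hyaluronan depolymerization, fell by 1.74 at 4-6 h (adjusted p = 3.3e-05) and was above starved by 0.76 at 15-18 h (adjusted p = 0.0043), a dip and rise as in Hyal2 but later. Among the 7 other receptors, 3 were called higher, 3 lower and 3 in no window, with 2 called in both directions. Neither count is far from the shares of all rows, 30.0% and 55.7%. Layn, for the hyaluronan receptor layilin, rose by 1.64 at 4-6 h (adjusted p = 0.00049). Tlr2, an innate receptor that also responds to hyaluronan fragments, fell by 2.44 at 24-27 h (adjusted p = 0.0027). Hmmr, a hyaluronan-binding protein of the mitotic spindle, was not called, with -1.43 at 4-6 h and 0.83 at 24-27 h (SE 0.713). Its Cycles differed, with means of 284 in starved cells and 876 at 24-27 h in Cycle 1, and 999 and 1041 in Cycle 2.

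Of the 15 genes for link and chain-binding proteins 11 had a row, all but Hapln2, Itih1, Ambp and Habp2. Of these 2 were called higher, 6 lower and 3 in no window, so that the lower count is at the 55.7% of all rows and the higher one under their 30.0%. Acan, for aggrecan, the cartilage counterpart of versican, rose by 3.05 at 7-10 h (SE 0.712, adjusted p = 0.0067) from starved means of 23.6 and 50.4. Its means in that window were 570.5 in Cycle 1 and 148.2 in Cycle 2, so the rise was much larger in Cycle 1. Hapln1, whose link protein clamps versican and aggrecan to hyaluronan, fell by 2.96 at 24-27 h (adjusted p = 2.4e-05). Itih5, of the inter-alpha-inhibitor heavy chain family, fell by 3.03 at 19-23 h (adjusted p = 0.00023). Of the 4 hyaluronan-binding proteoglycans Acan was thus the only one called higher, from 4-6 h on. Vcan was lower over those windows, Bcan, for brevican, was lower from 11-14 h on with -1.17 to -1.58 from starved means of 7.55 and 3.59, and Ncan, for neurocan, was lower at 24-27 h (-0.94, adjusted p = 0.033). Of the 10 provisional matrix glycoproteins 2 were called higher, 7 lower and 1, Fbln2, in no window, against 30.0% and 55.7% of all rows. Tnc, for tenascin-C, rose by 2.91 at 7-10 h (adjusted p = 0.00017), and Thbs1, for thrombospondin 1, by 1.76 at 15-18 h (adjusted p = 0.0003). Fn1, for fibronectin, was at -0.02, 0.02 and -0.14 in the first 3 windows and at -0.68 at 24-27 h (adjusted p = 0.00085), and Postn, for periostin, was at -2.34 (adjusted p = 0.00019). At 24-27 h the median of this list was -0.96, beside -0.17 over all rows, and 7 of the 11 fibroblast markers, none of which is in these lists, were called lower in that window. The part of this in the matrix lists was not tested.

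The 6 proteases known to cut versican were all called lower in at least 1 window, against 55.7% of all rows, and 1 of them, Adamts4, was also higher at 2-3 h and 4-6 h. At 4-6 h 5 were lower and 1 higher, against 31.9% and 15.8% of all rows, and the median was -2.05, beside -0.26 over all rows. Adamts5 fell by 4.03 in that window (adjusted p = 9.8e-06), from starved means of 1870 and 1957. Adamts15 fell by 6.88 at 15-18 h (adjusted p = 5.2e-06), from starved means of 411 and 336 to 2.49 and 3.13. At values that low the size of the fall depends on the 1 added to each value. Adamts1 fell by 2.26 at 4-6 h (adjusted p = 0.00021). At 4-6 h 5 of the 11 fibroblast markers were called lower too, and their part in these results was not tested.

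**Figure D4:**
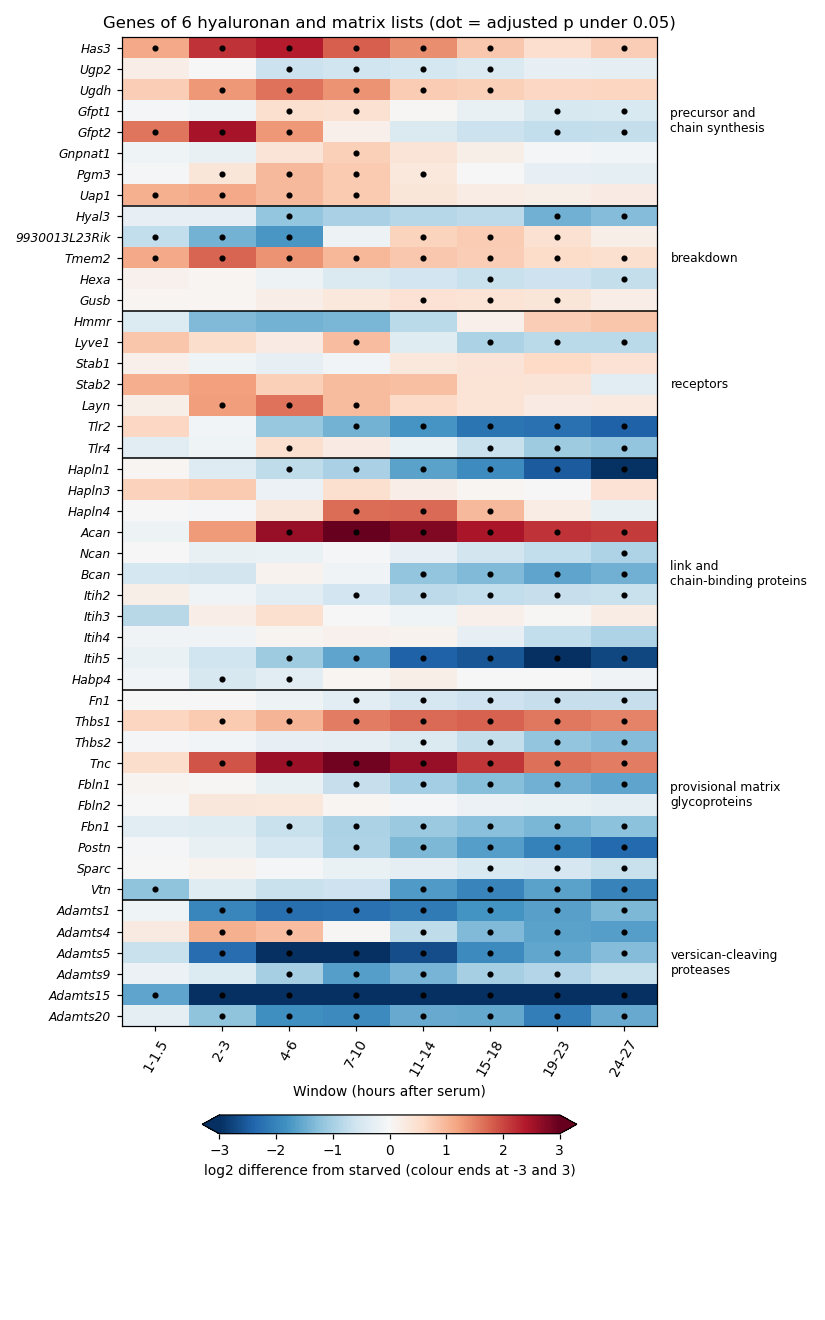
log2 difference from starved cells, in colour from blue (lower) to red (higher), for the 47 genes of 6 lists with a row (vertical axis) in 8 windows (horizontal axis), with a black dot where the adjusted p was under 0.05. Most synthesis genes are red at 2-3 h to 7-10 h, proteases are blue from 2-3 h on except Adamts4, and Acan, Tnc and Thbs1 stand out as red rows among blue ones in the matrix lists.

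Cycle 1 alone ran past 27 h, without a replicate. Has2 was between 1709 and 2155 at 28 to 33 h, and then 621, 364, 522, 527 and 526 at 34, 35, 36, 37 and 38 h. Cd44 was 7714 at 33 h, and 5992, 3639, 2547, 2150 and 2174 in the same 5 libraries. Has2 was thus at its lower level from 34 h on, and Cd44 from 36 h on, and both remained above starved, at 2.24-fold and 2.40-fold at 38 h. Vcan and Hyal1 went up meanwhile. Vcan was 1706 at 28 h and 3549 at 38 h, or 0.910-fold of starved, and Hyal1 was 15.1 and 39.6. Between the first and the last of these hours, Has2 and Cd44 were more than 2-fold lower (ratios of 0.264 and 0.294), as were 6.10% of all rows, and Hyal1 and Vcan more than 2-fold higher (2.52 and 2.08), as were 12.8%. Has1, Hyal2, Tnfaip6 and Ptx3 changed by less than 2-fold between these libraries. Ptx3 lay above both starved libraries of Cycle 1 in each library from 29 h on, and was 1.32-fold of starved at 38 h. Tnfaip6 was still low at 38 h, at 0.271-fold. Has1 was listed at 0 at 35 h, in the library with the fewest reads, where a count of 0 allows a value of up to 5.88 (3 reads, counting error only).

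**Figure D5:**
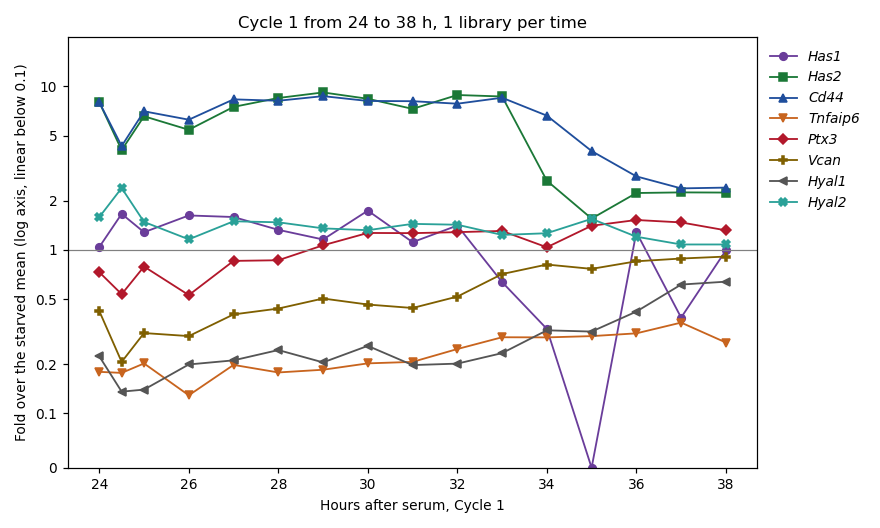
Fold over the Cycle 1 starved mean of the 8 genes from 24 to 38 h after serum, 1 library per time, on a log axis that is linear below 0.1. Has2 and Cd44 drop from 8.68-fold and 8.53-fold at 33 h to 2.24-fold and 2.40-fold at 38 h, Vcan and Hyal1 move up towards 1, and at 24.5 h Has2, Cd44 and Vcan are lower and Hyal2 higher than at 24 and 25 h.

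Single libraries also left the course of a gene. Has2 was 908 at 27 h in Cycle 2 after 2494 at 26 h, a step of more than 2-fold that 3.52% of all rows made downwards, and 27 h is the last library of that Cycle. At 24.5 h in Cycle 1 Has2 was 956, Cd44 3905 and Vcan 805, each less than 2-fold below its mean of 24 and 25 h. Hyal2 was 889, above that mean. Of all rows 12.9% were more than 2-fold lower in the 24.5 h library than that mean, and none of these genes was among them. That library is not at a shared hour and entered no test.

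The genes whose course was most like that of each member, by the smaller of the Pearson correlations in the 2 Cycles over the 29 shared hours, are given as a description. The points of a Cycle share their starved libraries and their neighbours in time, and smooth courses correlate highly across the table. For Tnfaip6 they were Sfrp2 (0.986), Dkk3 (0.983) and Rcan1 (0.980), for Hyal2 Syde1 (0.969), Mapk14 (0.968) and Psmd5 (0.960), and for Cd44 Reps1 (0.949), Spred1 (0.941) and Csnk1g3 (0.935). For Ptx3 they were Tgfbr3 (0.929), Hic1 (0.912) and Nrg1 (0.874), and for Vcan Igsf10 (0.920), Colec12 (0.920) and Plekhh2 (0.913). Has2 had no close companion among the 10485 rows searched, those with a mean of at least 50. The nearest were 2610203C20Rik (0.609), Ccbe1 (0.607) and Itpr2 (0.581). Has1 and Hyal1, with means of 37.3 and 20.7, were under the minimum of 50 for this search. Among the 28 pairs of the 8 genes, Hyal2 and Tnfaip6 were the most opposed (-0.928 in Cycle 1 and -0.931 in Cycle 2), and Has1 and Tnfaip6 were close (0.873 and 0.893). The 2 synthases were not alike, with -0.274 in Cycle 1 and -0.021 in Cycle 2 for Has1 and Has2.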

How the data were processed

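RNA was sequenced from CF-1 mouse embryonic fibroblasts at successive times after serum in 2 time courses. Per the labels and the paper's methods, the authors aligned reads with STAR to mm9 after CASAVA, counted those on exons on both strands with HOMER and scaled each library to one total. The deposited signal values are these scaled reads, averaged over transcripts for some genes. Of 96 columns 95 were matched to a library by name, and 1 was not used. In each library 94.2% to 96.2% of the low values were whole reads within 0.1 read, and depth limits the precision of rare RNAs. Intervals and floors cover counting error only.

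The 29 hours sampled in both Cycles and the starved libraries (62 libraries) were averaged on the log2(value + 1) scale per Cycle into starved and 8 windows. limma 3.58.1 in R 4.3.3 was fitted to all 15895 rows with Cycle as a block, without a trend or robust option, and p-values were adjusted by Benjamini-Hochberg per contrast with a threshold of 0.05. The block stands because the labels give each library its time course and the study scales by the starved level of the same course. Deviations of the 2 Cycles from their level means correlated across 10511 genes with a median of 0.471 over 36 pairs of levels (0.0164 to 0.866). edgeR 4.0.16 on whole reads, rounded where rows are averages, was an alternative, and others are given in the closing section. On simulated 2-3 h data the window fit recovered 9 of 50 genes changed 1.5-fold, 43 of 50 changed 2-fold and 50 of 50 changed 4-fold, with 21 unchanged genes called. The changed genes had a mean of at least 50, and the simulated spread was set beforehand, the same for every gene. The fitted SE of the 8 members ran from 0.157 (Hyal2) to 0.454 (Has1), so these counts do not give the recovery for each of them. Python 3.11.15, numpy 2.4.6, pandas 2.3.3 and matplotlib 3.10.9 were used for the rest.

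The genes named are the 8 members, the genes of the 6 pathway lists, overlapping genes at the member loci, cell type markers, and for each member with a mean of at least 50 the 3 genes of most similar course. One gene of the breakdown list is not reported here. Members and lists were chosen with earlier results of these data known. Hours of Cycle 1 alone have no replicate and were not tested. Gene coordinates are from NCBIM37 with GENCODE vM1 annotation, promoters from RefSeq on GRCm38.p6, and no coordinate was converted between them.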

Additional observations from a re-analysis of the deposited data

Results flagged for a closer look

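The late level of Has1 differed in direction between the time courses. At 24-27 h the log2 difference from starved was 0.90 in Cycle 1, where all 4 libraries lay above the starved mean of 7.59, and -1.32 in Cycle 2, where all 4 lay below the starved mean of 26.6. The difference between the Cycles was not tested. The window values themselves were alike, 7.89 to 12.3 in Cycle 1 and 3.92 to 15.6 in Cycle 2, while the starved values were 1.50 and 13.7 against 15.3 and 37.9. In none of the 8 groups of 4 starved libraries did 1 library stand apart by Dixon's test. With 4 values from Cycles whose starved levels often differed, this test could hardly flag a library, so nothing is concluded from it.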

How the results depend on the processing

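Of the 64 comparisons of a gene with starved cells 51 were called. Over 12 alternatives, 705 of 752 values kept their side of the threshold, 25 lost their call, 22 gained one and 0 turned direction. The alternatives gave 43 to 58 calls of 64, apart from 40 of the 48 for genes with a mean of at least 50. Without the replicate block for Cycle 44 comparisons were called, and the 7 calls lost were Has1 at 7-10 h, Hyal2 at 1-1.5 h and 7-10 h, Vcan at 2-3 h and Ptx3 at 1-1.5 h, 4-6 h and 7-10 h. The block changed no other call of these genes, and without it the pathway lists held 81 instead of 122 lower calls. Ptx3 at 2-3 h gained a call after TMM rescaling (1.28), rescaling by the median of ratios (1.31) and in edgeR (1.31), and Hyal2 at 4-6 h did so under the same 3 (0.46, 0.47 and 0.51). With 1 coefficient per shared hour 14 instead of 4 successive steps were called, where hours of a Cycle that share error count as separate. A log2 difference above 1 as a further condition left 40 instead of 70 higher and 80 instead of 122 lower calls in the pathway lists, which is a stricter rule by construction. Leaving out each of 62 libraries in turn gave 49 to 55 calls of 64, 3 to 5 successive steps, 5 to 6 genes higher and 5 to 6 lower in some window, and 66 to 76 higher and 116 to 123 lower calls in the lists. Of 3968 such values 10 lost and 28 gained a call, among them 17 for Hyal1 at 1-1.5 h, which lay at the threshold. Over all rows at 2-3 h 1932 were called higher and 5365 lower, and 1049 and 2710 where a log2 difference above 1 was also asked for. Changes under 2-fold were thus among the calls. How many changes of that size went uncalled in these libraries was not tested, so a missing call is no evidence of an unchanged level.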

Other observations

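Markers of 4 further cell types were summed in each library. The 6 endothelial markers summed to 39.2 to 291 in Cycle 1 and 79.6 to 252 in Cycle 2, and were highest in starved cells of Cycle 1. The 6 epithelial markers summed to 39.0 to 652 and 76.1 to 232. Of the 4 neural markers the sums were 189 to 567 and 177 to 430. The 3 skeletal muscle markers with a row, Myod1, Myog and Des, summed to 313 to 1442 in Cycle 1 and 696 to 2180 in Cycle 2, with medians of 755 and 1038, and Myf5 had no row. These sums are on the scale of the macrophage ones, with medians of 924 and 3103, and the Des median of 815 is above the Lyz2 median of 744. Their part in the results on the hyaluronan genes was not tested.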
